A study of Caenorhabditis elegans with 83 samples.

Results

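These data are the RNA comparison of strain JK05, in which SMC-3 of the cohesin complex is the target of depletion, with strain CA1200, both after 4 h of auxin. The members are all 18128 genes of the authors' deposited table of that comparison, which rests on 4 of the 83 samples of the series. The study asked how cohesin and its release factor shape chromatin in Caenorhabditis elegans, and most of its other samples are ChIP-seq. In auxin-inducible degradation a plant F-box protein, TIR1, marks a protein that carries a degron tag for destruction once auxin is present. CA1200 is known to express TIR1 from the promoter of eft-3 in somatic cells, and to carry an unc-119 mutation with a rescuing unc-119 gene of Caenorhabditis briggsae beside the TIR1 transgene. The alleles of JK05 are not given in the sources used here. The groups were 2 libraries of JK05 and 2 libraries of CA1200, and a second table set 2 libraries of JK06, the strain for depletion of the cohesin release factor WAPL-1, against the same CA1200 libraries. All worms were whole larvae labelled L3, grown for 24 h at 22 °C from starved first-stage larvae, kept on plates with 1 mM auxin and used for poly(A) RNA. Titles give 4 h of auxin, whereas the treatment text speaks of an hour. Every RNA sample had received auxin, and no RNA of JK05 without auxin is analysed here, so depletion and any other difference between the strains cannot be told apart.

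Cohesin is a ring of SMC-3, its partner SMC-1 (encoded by him-1 in worms), a kleisin and a further subunit, and it holds sister chromatids together and extrudes chromatin loops. A loader, which holds PQN-85 in worms, puts it on chromatin, and WAPL-1 takes it off. In whole larvae, fewer cells of a type and less RNA per cell of that type cannot be told apart.

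The authors' deposited table gives the mean normalized count of a gene over the 4 libraries, and the reads of each library were recovered from its digits for 17988 of the 18128 genes. The JK05 libraries held 12889993 and 11036717 recovered reads, and the CA1200 libraries held 24199226 and 7136867. They are called the deeper and the shallower library of each strain here, because the recovered values carry no replicate number. Values per library below are normalized counts, that is, reads divided by the size factor of the library, with the deeper library first. The CA1200 libraries stood much farther apart than the JK05 libraries. Over 11260 genes with a mean normalized count above 50, the standard deviation of the log2 ratio of the libraries was 0.236 within JK05 and 0.746 within CA1200, and it was 0.508 to 0.674 between libraries of different strains. The shallower CA1200 library stood over 2-fold from each of the other 3 libraries in 540 of these genes, and the deeper CA1200 library did so in 286. The corresponding numbers were 23 genes for the deeper and 1 gene for the shallower JK05 library. In 348 of the genes both JK05 libraries lay on one side of both CA1200 libraries, with means over 2-fold apart.

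Few genes passed the authors' test, and more of them were lower than higher in JK05. An adjusted p was given for 15316 genes, none below a mean normalized count of 2.91, and the other 2812 genes had none. By the authors' DESeq2 Wald test with Benjamini-Hochberg adjustment, 105 genes (0.686% of those tested) had an adjusted p under 0.05 and are the called genes below. Of these, 34 genes (0.222%) were higher and 71 genes (0.464%) were lower in JK05. In the authors' deposited table the median log2 fold change was 1.83 for the genes called higher, −1.72 for those called lower and −0.01 for all genes tested. A further 951 genes had an unadjusted p under 0.05 and were not called, so 1056 of the 15316 tested genes had one in all. Of the called genes, 103 are annotated as protein-coding and 2 as pseudogenes.

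The called genes were chosen by a test on the same 4 libraries, so their separation is a description. Both JK05 libraries lay above both CA1200 libraries for all 34 genes called higher, a pattern that 22% of the 15176 tested genes with recovered reads showed. They lay below both CA1200 libraries for all 71 genes called lower, a pattern shown by 21.5% of the tested genes. The CA1200 libraries were over 2-fold apart in 23 of the 105 genes, 6 called higher and 17 called lower, and the JK05 libraries in 8. The calls depended on the test. With limma-trend on the recovered reads, which estimates the spread from the 4 libraries and does not share the authors' dispersion model, 1 of 15176 genes (swt-3, adjusted p = 0.0231, 0.00659%) was called, although all 105 genes had the same direction and all but 1 of them an unadjusted p under 0.05. Without the deeper or without the shallower JK05 library limma-trend called 0 genes, with no more than 316 genes at an unadjusted p under 0.05 in either fit. Without the deeper CA1200 library it called 5537 genes, and without the shallower 3439, in fits that assume that a lone CA1200 library varies like the JK05 pair.

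**Figure D1:**
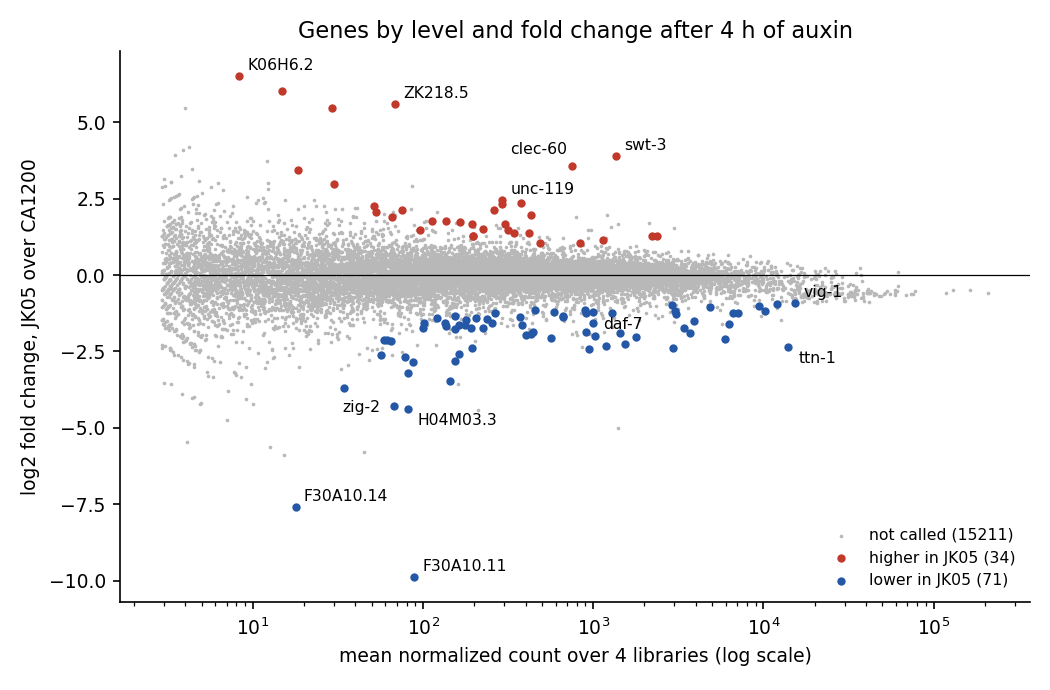
Each point is 1 of the 15316 tested genes. The horizontal axis is the mean normalized count over the 4 libraries on a log scale, the vertical axis is the log2 fold change of JK05 over CA1200 in the authors' deposited table, and red and blue points are the 34 genes called higher and the 71 called lower. The called genes range from 8.29 to 15334.8 normalized counts, and the points of F30A10.11, F30A10.14 and K06H6.2 are fitted values of genes with no read in one strain.

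The called genes nearest the threshold were cpr-9 and cpr-5, both at an adjusted p of 0.0496, and K06H6.2 at 0.0494. Just outside it lay glf-1 at 0.0516, and C02B8.3 and F44E5.5 at 0.0523. These values come from the authors' deposited table.

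The gene with the largest Wald statistic in size was swt-3 (C06G8.1), of the SWEET family of sugar transporters, on chromosome IV from 10778965 to 10780691. The count of swt-3 was 2509 and 2554 in JK05, against 176 and 168 in CA1200. The libraries of each strain were nearly equal and the strains were 14.7-fold apart. The difference of swt-3 in the authors' deposited table was 3.88 ± 0.27 on the log2 scale (estimate and standard error from 2 libraries of each strain, DESeq2 adjusted p = 7.04e-42). Its neighbours on both sides, inpp-1 with 217 and 220 in JK05, against 186 and 175 in CA1200, and pept-2 with 661 and 642 in JK05, against 496 and 360 in CA1200, were not called.

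Next among the genes called higher by size of the Wald statistic was unc-119 (M142.1), which encodes a chaperone of lipid-modified proteins that neurons need, on chromosome III from 10902548 to 10908831. It had 467 and 519 normalized counts in JK05, against 85.7 and 94.5 in CA1200. For unc-119 the authors' deposited table gave a difference of 2.46 ± 0.32 on the log2 scale (DESeq2 adjusted p = 1.11e-10). The groups were 5.47-fold apart, and the libraries were 1.11-fold apart in JK05 and 1.1-fold apart in CA1200. The JK06 libraries held 93.3 and 103 normalized counts of unc-119, against 98.4 and 107 in CA1200 on the scale of the JK06 table. For unc-119, strain construction and depletion cannot be told apart. The gene lies 388 kb from smc-3. Its neighbour com-1 had 182 and 144 in JK05, against 168 and 184 in CA1200, and cut-6 had 103 and 80.9 in JK05, against 49.4 and 35.7 in CA1200. Neither of these was called.

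The genes called higher included the following members of larger families. The C-type lectin-like gene clec-60 had 1948 and 828 normalized counts in JK05, against 96 and 143 in CA1200. Both JK05 libraries of clec-60 lay above both CA1200 libraries, as in all 34 genes called higher, and were themselves over 2-fold apart. Its relative clec-82 had 780 and 469 in JK05, against 64 and 186 in CA1200. The warthog gene wrt-1, related to hedgehog signals, had 1628 and 1526 in JK05, against 716 and 708 in CA1200. The difference of wrt-1 was 2.21-fold with narrow spread in each strain. The cuticle collagen gene col-131 had 525 and 467 in JK05, against 195 and 189 in CA1200, and it was the single collagen gene called higher. The predicted chemoreceptor gene srg-31 had 849 and 530 in JK05, against 157 and 194 in CA1200. The means of srg-31 were 3.92-fold apart.

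The detoxification gene ugt-26, a UDP-glucuronosyltransferase, had 473 and 503 normalized counts in JK05, against 135 and 55.3 in CA1200. The CA1200 libraries were 2.44-fold apart and the JK05 libraries were close. In the JK06 table ugt-26 had 555 and 715 normalized counts in JK06, against 155 and 62.6 in CA1200. It was the 1 of 37 tested genes of the list of xenobiotic and oxidative response genes that was called (2.7%, against 0.686% of all tested genes). Earlier results of these data were known when that list was chosen, so its share called is only a description. Genes without a family name included some of the most abundant called higher. ZK1025.3 had 3522 and 3164 in JK05, against 1449 and 1284 in CA1200. F33D4.6 had 3356 and 2923 in JK05, against 1321 and 1270 in CA1200. For F33D4.6 the counts overlap those of nhr-8 on the other strand, and whether counting used strand is not stated. F45D11.16 had 465 and 378 in JK05, against 96.6 and 98.1 in CA1200. In the JK06 table F45D11.16 had 202 and 10.9 in JK06, against 111 and 111 in CA1200.

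A few genes were called higher from a level near 0 in CA1200. K06H6.2, at the edge of the threshold, had 17 and 16 reads in JK05, against 0 reads in both CA1200 libraries. With a floor of 3 reads per CA1200 library it was at least 4.75-fold higher. The gene her-1, chosen after its values were seen, had 37 and 30.9 in JK05, against 3.8 and 1.78 in CA1200. It encodes a secreted protein that directs male development. The pals-38 gene, also chosen after its values were seen, was not near 0 in CA1200. It is of a family known from the intracellular pathogen response and had 215 and 206 in JK05, against 63.5 and 58.9 in CA1200.

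The gene called lower with the largest Wald statistic in size was ttn-1 (W06H8.8), which encodes a giant titin-like protein of muscle and spans 81719 bp on chromosome V from 6120891 to 6202609. It had 4829 and 4409 normalized counts in JK05, against 22646 and 24126 in CA1200. The strains were 5.06-fold apart and neither pair of libraries differed by over 1.1-fold. The difference of ttn-1 was −2.34 ± 0.25 on the log2 scale in the authors' deposited table (DESeq2 adjusted p = 8.36e-17). It was 0.12 ± 0.40 in the authors' deposited table of JK06. The gene exp-2 lies within its span on the other strand and had 595 and 535 in JK05, against 513 and 491 in CA1200. Of the 20 measured genes of the list of body muscle genes, ttn-1 alone was called (5%, against 0.686% of all tested genes). Earlier results of these data were known when the list was chosen, so this share is only a description. The list had a median log2 fold change of −0.46 in the authors' deposited table, against −0.01 for all genes tested, and all 20 values were negative. Of its 11 genes with recovered reads, 10 lay below both CA1200 libraries, as 21.5% of all tested genes did. The summed counts of the 11 genes with recovered reads, ttn-1 among them, were 97940 and 84140 in JK05, against 140800 and 148700 in CA1200. The part of muscle content in the result for ttn-1 was not tested.

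The genes of 3 ligands were called lower in JK05, among them daf-7 and daf-28, which are known to act against the dauer larva, a dormant alternative larval stage. The TGF-beta ligand daf-7, made mainly by a pair of sensory neurons, had 406 and 417 normalized counts in JK05, against 1524 and 1739 in CA1200. The insulin-like daf-28 had 161 and 172 in JK05, against 723 and 560 in CA1200. The insulin-like ins-5 had 22.8 and 24.5 in JK05, against 312 and 212 in CA1200. The JK05 libraries were close to each other for all 3 ligand genes. They lay below both CA1200 libraries, as in all 71 genes called lower. The log2 fold changes in the authors' deposited table were −1.99 ± 0.27 for daf-7 (DESeq2 adjusted p = 8.12e-10), −1.95 ± 0.32 for daf-28 and −3.48 ± 0.44 for ins-5. These 3 were the called members of 37 tested genes in the list of insulin-like and TGF-beta genes (8.11%, against 0.686% of all tested genes), and none was called higher. Earlier results of these data were known when the list was chosen, so this share is only a description. The list's median log2 fold change was −0.28 in the authors' deposited table, with 27 negative and 10 positive values. The 18 tested neuron marker genes had a median of −0.04 in that table and 0 called. By DESeq2, 0 of them had an unadjusted p under 0.05, against 1056 of all 15316 tested genes.

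Called lower were also lbp-1 and 4 lipase-related genes. Of the 31 tested genes of the list of lipid metabolism and vitellogenin genes, 3 were called lower (9.68%, against 0.464% of all tested genes), all of them lips genes, and 0 higher. This list was chosen with earlier results of these data known, so its share called is only a description. The list's median log2 fold change was −0.04 in the authors' deposited table, with 20 negative and 11 positive values. Its summed counts, over genes with recovered reads only, were 107700 and 95180 in JK05, against 64570 and 157100 in CA1200. The lipid-binding protein gene lbp-1 had 594 and 611 normalized counts in JK05, against 2035 and 2467 in CA1200. The lipase-related lips-11 had 17 and 15 reads in JK05, against 346 and 60 reads in CA1200, or 188 and 107 normalized counts in CA1200. The lipase-related lips-6 had 22.8 and 53.2 in JK05, against 208 and 332 in CA1200. As in all 71 genes called lower, the groups did not overlap in these genes, nor in lips-15 and lips-16, which varied more within CA1200. The values of lips-15 were 203 and 387 in JK05, against 790 and 2397 in CA1200. Those of lips-16 were 19.9 and 25.5 in JK05, against 64 and 136 in CA1200. Of the 13 tested lips genes, 4 were called lower (30.8%, against 0.464% of all tested genes) and 0 higher, and 6 of the 13 had positive fold changes.

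The immune effectors of the list of antimicrobial peptides and lysozymes had 3 called lower (6.82%, against 0.464% of all tested genes) and none called higher among 44 tested. Earlier results of these data were known when this list was chosen, so its share called is only a description. The lysozyme gene lys-4 had 376 and 412 normalized counts in JK05, against 952 and 1905 in CA1200. The caenacin gene cnc-2 had 46.5 and 56.4 in JK05, against 164 and 137 in CA1200. The defensin-like abf-4 had 9.49 and 22.3 in JK05, against 96 and 98.1 in CA1200. Of the list's 44 genes, 39 had negative and 5 positive fold changes, and the median was −0.73 in the authors' deposited table. Of the C-type lectin-like genes, 2 of 132 were called higher (above) and 2 lower (1.52% each, against 0.222% and 0.464% of all tested genes), and 96 of the 132 fold changes were negative. The lower ones were clec-85 with 176 and 195 in JK05, against 520 and 640 in CA1200, and clec-186 with 195 and 221 in JK05, against 497 and 571 in CA1200.

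Most of the cuticle collagens that were called were lower in JK05, and the CA1200 libraries were unequal in them. Among the tested col genes, 99 had negative and 20 positive fold changes, 6 were called lower (5.04%) and 1 higher (0.84%), against 0.464% and 0.222% of all tested genes, and the family's median log2 fold change was −0.74 in the authors' deposited table. Against the deeper CA1200 library the median difference of the family was down to −1.11, and against the shallower it was up to 0.27 on the log2(normalized count + 1) scale. The col family differed by a median of 1.24 on that scale between the CA1200 libraries and by 0.28 between the JK05 libraries. Of the 2 most abundant called collagens, col-159 had 1688 and 2860 normalized counts in JK05, against 14610 and 4716 in CA1200. The gene col-93 had 3070 and 3175 in JK05, against 13283 and 5651 in CA1200. The gene col-169 had 617 and 445 in JK05, against 4022 and 1101 in CA1200. In all of these the deeper CA1200 library was the highest. The shallower lay above both JK05 libraries, as it did in all 71 genes called lower. The gene col-80 had 710 and 692 in JK05, against 3673 and 2041 in CA1200. The list of other epidermal markers summed to 26420 and 23040 in JK05, against 24900 and 18800 in CA1200. The part of the spread between the CA1200 libraries in the collagen results was not tested.

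**Figure D2:**
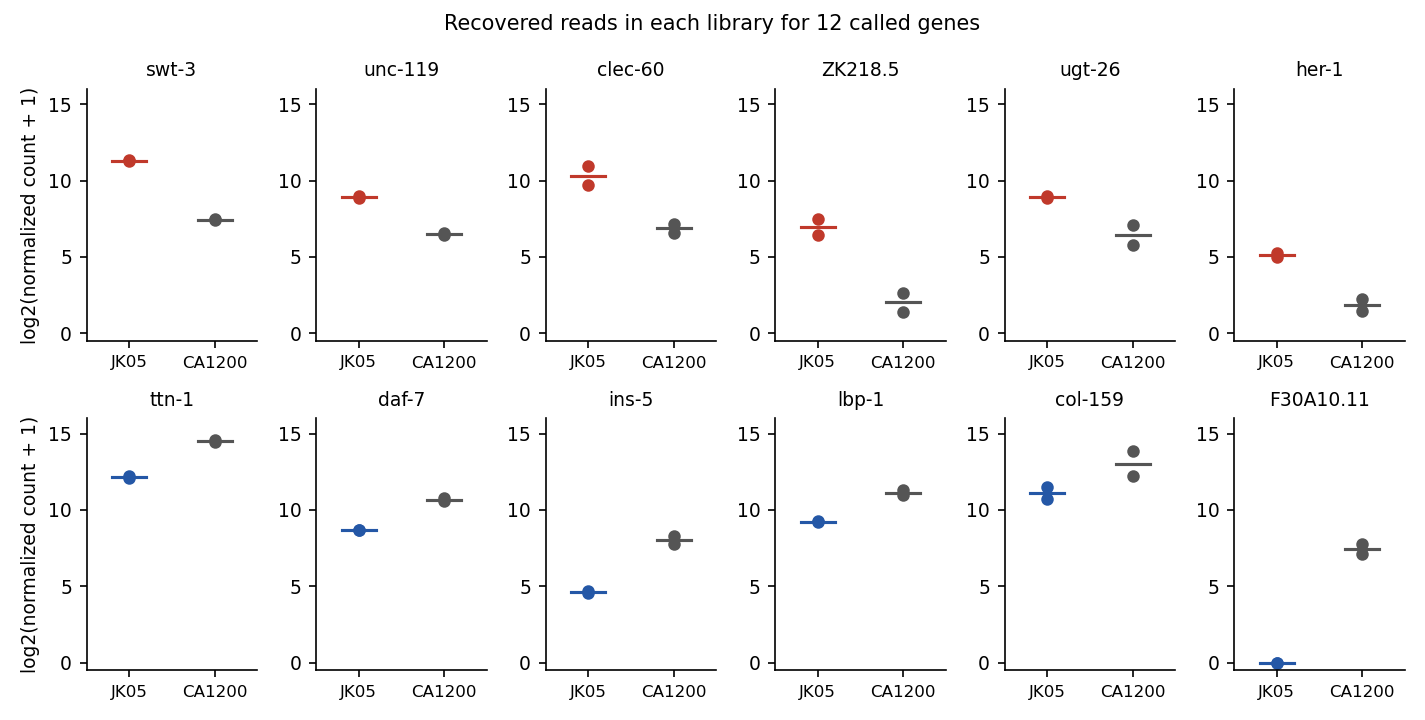
Points are the 2 libraries of each strain and bars their means for 12 called genes, on the log2(normalized count + 1) scale of the vertical axes, with JK05 left of CA1200 in each panel. The upper row shows 6 genes called higher and the lower row 6 called lower, and F30A10.11 has 0 reads in both JK05 libraries.

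A pair of neighbouring genes had no read at all in JK05. F30A10.11, on chromosome I from 9477469 to 9478090, had 0 reads in both JK05 libraries, against 138 and 216 normalized counts in CA1200. F30A10.14, from 9476596 to 9477081, had 0 reads in both JK05 libraries, against 32 and 39.2 in CA1200. With a floor of 3 reads per JK05 library, F30A10.11 was at least 58.6-fold lower and F30A10.14 at least 11.8-fold lower. In the JK06 table F30A10.11 had 238 and 179 normalized counts in JK06, against 158 and 244 in CA1200. The nearest tested genes on both sides were expressed in both strains. F30A10.2, on the right, had 357 and 376 in JK05, against 183 and 164 in CA1200, and calm-1, on the left, had 131 and 178 in JK05, against 248 and 305 in CA1200. Neither was called (DESeq2 adjusted p = 0.0662 for F30A10.2 and 0.487 for calm-1 in the authors' deposited table).

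In some called genes the CA1200 libraries were far apart. The secreted immunoglobulin-domain gene zig-2 had 4.74 and 8.51 in JK05, against 43.9 and 214 in CA1200. H04M03.3 had 10.4 and 4.26 in JK05, against 18.4 and 291 in CA1200. Both genes were chosen after their values were seen. The T05B4.8 gene had 4.74 and 5.32 in JK05, against 113 and 14.3 in CA1200. In some abundant called genes the libraries of each strain lay close together. The gene vig-1, with the highest mean count of the called genes, whose protein is part of the small-RNA silencing complex, had 10611 and 10565 in JK05, against 21016 and 19147 in CA1200. The cathepsin-B-like protease gene cpr-1 had 7707 and 8649 in JK05, against 15751 and 15831 in CA1200. The list of intestine markers had cpr-1 as the 1 of 12 called (8.33%, against 0.686% of all tested genes). It was chosen with earlier results of these data known, so this share is only a description. Over genes with recovered reads the list summed to 47120 and 48120 in JK05, against 64310 and 69750 in CA1200. Next in abundance came bcf-1 and T21H3.1, and T21H3.1 had 6327 and 6104 in JK05, against 12099 and 13275 in CA1200. The carboxypeptidase-like gene ctsa-1.2 had 1932 and 2162 in JK05, against 5387 and 6131 in CA1200. The nuclear hormone receptor gene nhr-74 had 45.5 and 79.8 in JK05, against 284 and 366 in CA1200. It was the 1 of 230 tested nhr genes that was called (0.435%, against 0.686% of all tested genes).

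Calls were spread unevenly over expression levels. The tested genes were divided into 10 equal bins by mean normalized count. The lowest bin, up to 9.93, held 1 called gene, and the next bin, up to 29.7, held 4. In the other bins the share called was between 0.457% and 1.24%. The highest bin, from 2179 on, held 17 genes called lower and 2 called higher (1.24% of its genes). Its median log2 fold change was −0.10 in the authors' deposited table, and 959 of its 1532 values were negative. The gap between the highest bin and the other genes was taken over genes with recovered reads, which in the bin were 1394 of 1532. Recovery was not tried above a mean of 20000, so the most abundant genes are left out of it. This gap was −0.149 to −0.006 in the 4 comparisons of a JK05 with a CA1200 library, on the log2(normalized count + 1) scale. Between the libraries of one strain the same gap was 0.075 in JK05 and 0.091 in CA1200, so its size lay within that range.

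Ribosomal protein genes made up part of the most abundant genes. All 44 tested rpl genes of the large subunit and all 30 rps genes of the small subunit had negative fold changes, with medians of −0.61 and −0.60 in the authors' deposited table. By the authors' DESeq2 test 0 were called. An unadjusted p under 0.05 was given to 32 rpl and 20 rps genes, against 1056 of all 15316 tested genes. Reads were recovered for 12 rpl genes, of which 11 lay below both CA1200 libraries, and for 7 rps genes, all of them below, as 21.5% of all tested genes were. The library-to-library medians ran from −0.83 to −0.38 for rpl.

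The shortest genes held the largest share of calls. The first of 10 equal bins of tested genes by length, with spans of 82 to 887 bp, held 22 genes called lower and 3 higher (1.63% of its genes, against 0.686% of all). The next bin held 14 lower and 3 higher (1.11%), and the other bins had between 0.261% and 0.718% called. The longest bin, from 7559 bp on, held 2 of each direction, among them ttn-1. The median log2 fold change of the shortest bin was −0.13 in the authors' deposited table. Its gap to the other genes was −0.132 to −0.111 in the 4 comparisons of a JK05 with a CA1200 library, on the log2(normalized count + 1) scale. Between the libraries of one strain the gap was −0.008 in JK05 and −0.046 in CA1200, both smaller. Length and level go together, since the median count of the shortest bin was 81.3 and that of the longest 957.6. The genes were also divided into 3 equal groups of low, middle and high level and each group into 5 bins by length. The shortest bin held 6 genes called lower and 4 higher at low level (0.979% of its genes). It held 15 lower and 2 higher at middle level (1.67%), and 16 lower and 0 higher at high level (1.57%). In the other length bins the share called was 0.196% to 0.49% at low level and 0.49% to 0.784% at middle level. At high level it was 0.196% to 0.881% in those bins.

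The 42 called genes up to 1254 bp, the first of 5 equal bins, were of mixed kinds. They comprised 19 without a family name, 6 col genes, 2 nssp genes and 1 each of several families of small secreted proteins, such as ins, flp, cnc and abf. The shortest genes called lower were nspe-2, F23A7.8 and C01G10.4. The gene nspe-2, of a nematode-specific peptide family, had 70.2 and 61.7 normalized counts in JK05, against 163 and 186 in CA1200. F23A7.8 averaged 85.8 ± 26.1 in JK05, against 268 ± 18 in CA1200 (SD, n = 2 each). The shortest genes called higher were C07E3.10, ZK218.5 and ZK218.7, and C07E3.10 had 96.8 and 111 in JK05, against 31.5 and 23.2 in CA1200. The longest genes called higher were mam-3, with 286 and 275 in JK05, against 112 and 118 in CA1200, and D2023.1, with 497 and 430 in JK05, against 130 and 162 in CA1200.

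**Figure D3:**
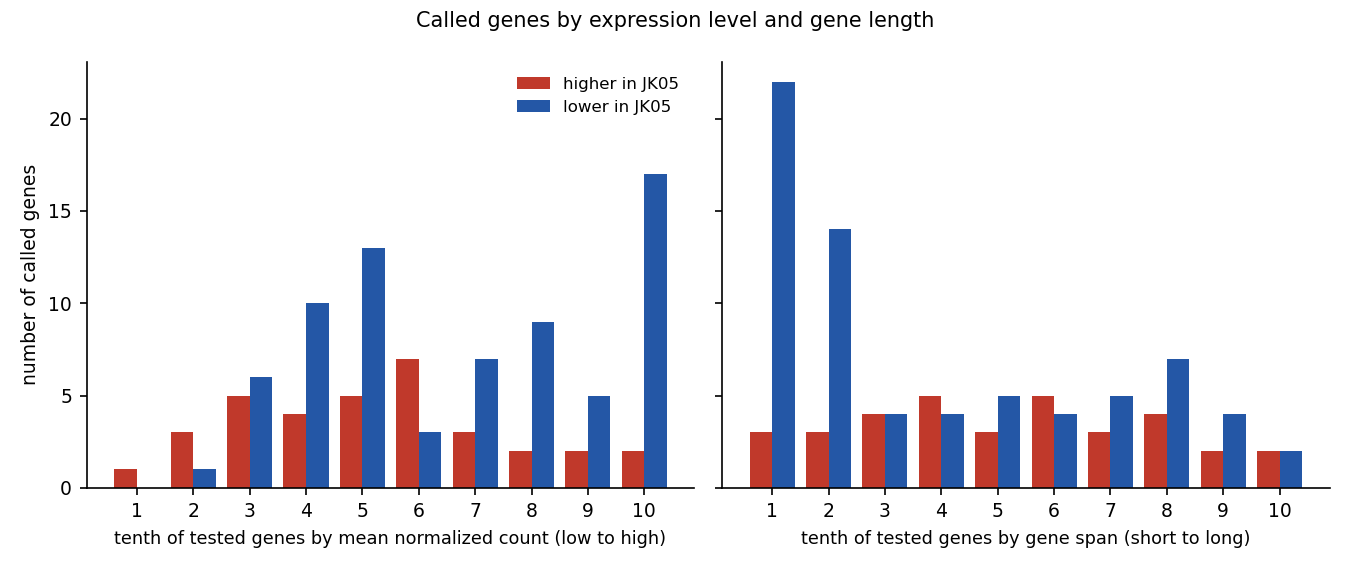
Bars count the genes called higher (red) and lower (blue) in JK05, in 10 equal bins of the tested genes by mean normalized count (left) and gene span (right). The highest bin of level holds 17 called lower and the shortest bin of span 22.

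Called genes were found on all chromosomes, with the largest share on V. Chromosome V held 37 of the 105, 12 higher and 25 lower (1.08% of its 3420 tested genes). The share was 0.781% on II, 0.745% on IV, 0.653% on X, 0.343% on I and 0.305% on III. On X, 3 genes were called higher and 12 lower, and the median log2 fold change was 0.02 in the authors' deposited table. The gap between X and autosomes was −0.052 to 0.154 between a JK05 and a CA1200 library, and 0.227 between the CA1200 libraries.

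Each chromosome of the worm has a gene-dense centre and arms with more repeats, more recombination and more fast-evolving gene families, and here the middle of 3 equal parts of each chromosome stands for the centre and the outer parts for the arms. The arms held 74 called genes among 9066 (0.816%) and the centres 31 among 6250 (0.496%). The genes called lower were 52 in the arms and 19 in the centres, and those called higher 22 and 12. Median log2 fold changes in the authors' deposited table were −0.05 in the left arms, −0.06 in the right arms and 0.04 in the centres. On all 5 autosomes the centre had a higher median than both arms, and on X it did not. Both JK05 libraries lay below both CA1200 libraries for 24.4% of genes in the arms and 17.3% in the centres, and above for 19.3% in the arms and 25.9% in the centres. The gap between arms and centres was −0.132 to −0.023 between a JK05 and a CA1200 library. It was 0.060 between the JK05 libraries and 0.067 between the CA1200 libraries, so the gap within a strain was of a size within that range. At low, middle and high expression level the share called was 0.491%, 1.07% and 0.923% in the arms and 0.325%, 0.568% and 0.568% in the centres.

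**Figure D4:**
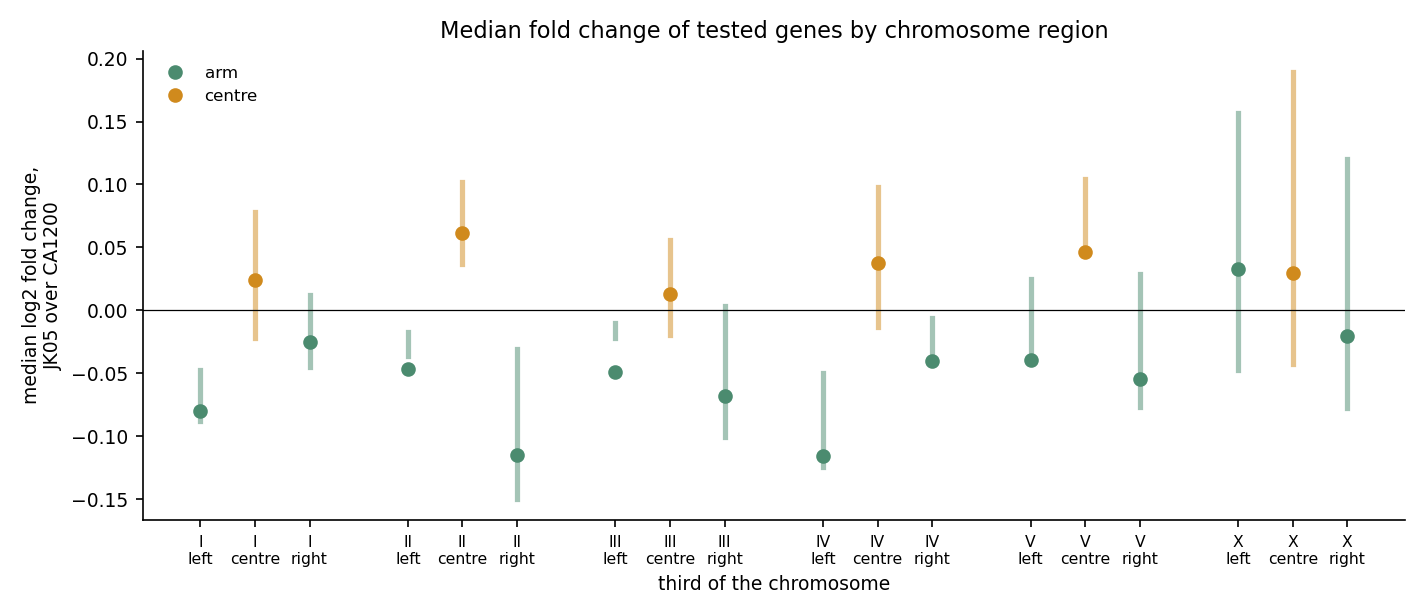
Points are the median log2 fold change of JK05 over CA1200 in the authors' deposited table for the tested genes of the 3 equal parts of each chromosome, and lines are the range of the medians over the 4 pairs of a JK05 and a CA1200 library. The points of the centres of the 5 autosomes lie above 0 and those of their arms below 0. The lines cross 0 in all 3 parts of X. They also cross it in the centres of I, III and IV, the right arms of I, III and V and the left arm of V.

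Called genes lay next to each other in 11 of 15310 pairs of neighbouring tested genes, and 9 of these pairs changed in the same direction. In 188 pairs 1 gene was called. The 11 pairs involved 19 genes, and 8 pairs were tandem (same strand), 2 convergent and 1 divergent. Across all pairs, neighbouring log2 fold changes had a Pearson correlation of 0.231 for tandem, 0.144 for divergent and 0.062 for convergent pairs. These are descriptions across genes of the same 4 libraries, and genes are not independent replicates. Beside genes called lower, 76 of 126 uncalled neighbours had negative fold changes (median −0.14), and beside genes called higher 32 of 62 had positive ones (median 0.09), in the authors' deposited table. Over all pairs of neighbours, 54.8% had fold changes of the same sign. Among convergent neighbours 12 of 29 had the same sign beside genes called lower (median 0.17) and 2 of 11 beside genes called higher (median −0.15).

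The largest run of called neighbours was C01G10.6, C01G10.5, C01G10.4 and C01G10.17 on the right arm of chromosome V, from 15087638 to 15091102, and all 4 were lower. C01G10.5 had 135 and 225 normalized counts in JK05, against 784 and 573 in CA1200. C01G10.4 had 208 and 233 in JK05, against 1234 and 589 in CA1200. Both neighbours outside this run were not called. C01G10.15, to the left, had 92 and 157 in JK05, against 283 and 303 in CA1200, with a DESeq2 adjusted p of 0.149 in the authors' deposited table.

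Another run lay at 17101107 to 17108394 on the same arm, where ZK218.5, ZK218.7 and ZK218.11 were all higher. ZK218.5 had 180 and 85.1 normalized counts in JK05, against 1.63 and 5.35 in CA1200. ZK218.11 had 77.8 and 35.1 in JK05, against 1.09 and 1.78 in CA1200. ZK218.7 had 45 and 15 reads in JK05, against 1 and 0 reads in CA1200. In all 3 the deeper JK05 library was at over 2 times the shallower one, and CA1200 was near 0. The genes beside them had few reads in either strain, such as F40D4.17 with 11.4 and 8.51 in JK05, against 10.3 and 19.6 in CA1200.

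The remaining called pairs were F30A10.14 with F30A10.11, T05B4.8 with T05B4.9, gfi-1 with bcf-1 and the collagens col-141 with col-142, all lower. The pair col-141 and col-142 lies 419 bp apart. The gene col-142 had 302 and 492 in JK05, against 2749 and 1186 in CA1200, and col-141 had 27.5 and 66 in JK05, against 458 and 102 in CA1200. The genes gfi-1 and bcf-1 are abundant, and bcf-1 had 5676 and 6789 in JK05, against 12368 and 15912 in CA1200. In 2 tandem pairs the directions were opposite. F49E12.12 had 272 and 279 in JK05, against 100 and 130 in CA1200, while drd-1 beside it had 31.3 and 16 in JK05, against 87.9 and 125 in CA1200. F18E9.4 had 136 and 148 in JK05, against 51 and 49.9 in CA1200, while F18E9.3 had 492 and 610 in JK05, against 1410 and 1044 in CA1200. Reads of neighbouring copies of one family could be split between them by the counting, whose settings are not given in the sources used here. Of the called genes 12 (11.4%) overlap another gene, always on the opposite strand, and 22.6% of tested genes overlap one.

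Among 160 families of at least 10 tested genes with a shared symbol prefix, 6 had 2 or more called genes, namely col, lips, clec, nssp, pqn and daf. The nssp family of nematode-specific secreted peptides had 4 of 84 called lower (4.76%, against 0.464% of all tested genes), and its median log2 fold change was −0.45 in the authors' deposited table. Its medians over single pairs of libraries were −0.50 to −0.35, a narrow range, and 57.1% of its genes lay below both CA1200 libraries, against 21.5% of all tested genes. The gene nssp-77 had 24.7 and 19.2 normalized counts in JK05, against 102 and 89.2 in CA1200, and nssp-46 had 87.3 and 85.1 in JK05, against 226 and 214 in CA1200. Neuropeptide families stood low as well. Of 30 flp genes, which encode FMRFamide-like peptides, 26 had negative fold changes, with a median of −0.45 in the authors' deposited table, and 73.3% lay below both CA1200 libraries, against 21.5% of all tested genes. The single flp gene called (3.33%, against 0.686% of all tested genes), flp-19, had 387 and 325 in JK05, against 807 and 829 in CA1200. Of 74 nlp genes, 61 had negative fold changes and nlp-64 was called (1.35%, against 0.686% of all tested genes). The counts of nlp-64 were 75 and 84.1 in JK05, against 237 and 253 in CA1200.

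In 3 families with raised medians the calls numbered 0, 0 and 1, against a share of 0.222% called higher over all tested genes. Of all 15316 tested genes, 1056 had an unadjusted p under 0.05 by DESeq2. The fbxa family of F-box genes had 0 of 147 genes called by DESeq2 (18 with an unadjusted p under 0.05), a median log2 fold change of 0.53 in the authors' deposited table, and 75 genes above both CA1200 libraries (51%, against 22% of all tested genes). Its medians over the pairs of libraries lay between 0.48 and 0.54. The bus family, named for a swelling response to bacteria, had positive fold changes in all 14 genes, with a median of 0.63 in the authors' deposited table and 0 called (6 with an unadjusted p under 0.05 by DESeq2). The pals family had a median of 1.20 in the authors' deposited table and 1 of 35 genes called higher (2.86%). The pals medians differed from pair to pair, at 0.50 to 2.55, and the CA1200 libraries differed by a median of 1.45 in this family. The nspc and abu families had medians of −1.08 and −0.80 in the authors' deposited table, and in both the medians over pairs of libraries ran from negative to positive. The nspc range was −1.80 to 0.34 and the abu range was −1.87 to 1.11, with 0 called in either by DESeq2 (2 and 1 genes with an unadjusted p under 0.05).

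**Figure D5:**
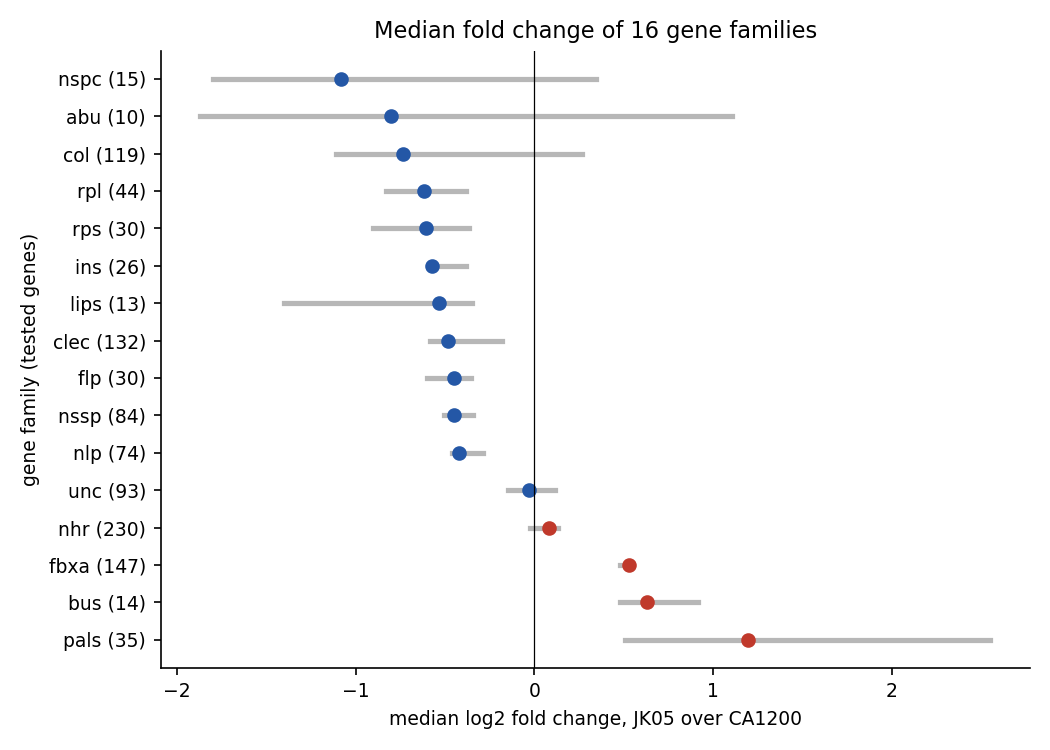
Points are the median log2 fold change of JK05 over CA1200 in the authors' deposited table for 16 families, with the number of tested genes in parentheses, and grey lines are the range of the family's median over the 4 pairs of a JK05 and a CA1200 library, over genes with recovered reads. For fbxa, nssp and flp the lines are short and stay on one side of 0, and for nspc, abu and col they cross it.

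Several lists of cell type and pathway genes had 0 called, beside 0.686% called over all tested genes. Their counts at an unadjusted p under 0.05 stand beside 1056 of all 15316 tested genes by DESeq2. The list of moulting genes had a median log2 fold change of 0.29 in the authors' deposited table, 25 of 31 values positive, 7 with an unadjusted p under 0.05 and 0 called by DESeq2. Its summed normalized counts were 116900 and 108600 in JK05, against 109000 and 80970 in CA1200. The germline list had 17 of 19 values negative (median −0.43 in the authors' deposited table) and summed to 12460 and 12290 in JK05, against 14850 and 15300 in CA1200, with 0 called by DESeq2 and 2 at an unadjusted p under 0.05. The heat shock list had 18 of 24 values negative, with 0 called by DESeq2 and 10 at an unadjusted p under 0.05, and its CA1200 libraries differed by a median of 0.98 on the log2 scale. The sperm list, present at trace level, summed to 120.5 and 86.2 in JK05, against 178.5 and 82.1 in CA1200. Of the genes listed, 6 of 8 for sperm and 24 of 25 for heat shock were held in the authors' deposited table. Its lowest mean normalized count was 0.27, so whether a missing gene had no read cannot be seen. The part of cell composition, stage and the spread of CA1200 in the results was not tested.

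Among the cohesin genes none was called. The transcript of the depleted protein, smc-3, had 939 and 1035 normalized counts in JK05, against 1165 and 1147 in CA1200, and its log2 fold change was −0.23 ± 0.26 in the authors' deposited table. Since auxin acts on the protein, the mRNA does not check the depletion. The partner gene him-1 had 1584 and 1699 in JK05, against 1744 and 1522 in CA1200. The loader gene scc-2 (also known as pqn-85) had 2447 and 2350 in JK05, against 2580 and 2413 in CA1200, and wapl-1 had 684 and 707 in JK05, against 740 and 717 in CA1200. All 14 genes of the list found in the table were uncalled by DESeq2, with 0 at an unadjusted p under 0.05, against 1056 of all 15316 tested genes. Their median log2 fold change was −0.06 in the authors' deposited table. In the list of condensin and dosage compensation genes, her-1 was the 1 of 18 called (5.56%, against 0.686% of all tested genes). Earlier results of these data were known when that list was chosen, so its share called is only a description.

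Few gene starts with a cohesin peak in CA1200 belonged to called genes. The ChIP peaks were those of the same strains after 1 h of auxin, as the authors combined them over replicate libraries. A start counted as bound where a peak summit lay within 500 bp in the deposited coordinates. The labels of the SMC-3 peaks state ce10 and no source used here gives the build of the gene coordinates. With the 6290 SMC-3 peaks of CA1200, 2 of 2582 bound starts were of called genes (0.0775%) and 103 of 12734 other starts (0.809%). Those 2 genes were vig-1 and Y39E4B.6 (named after the count was seen), both lower. Bound genes had a higher median normalized count, 669.5 against 175.7 for the other genes. At low, middle and high level, 0 of 236, 0 of 890 and 2 of 1456 bound genes were called, against 0.452%, 1.04% and 1.01% of the other genes. Median log2 fold changes in the authors' deposited table were −0.03 for bound and −0.01 for other genes, and their difference was −0.035 to −0.007 over the pairs of a JK05 and a CA1200 library. With the loader peaks of CA1200, 3 of 2163 bound starts were of called genes (0.139%, against 0.775% of the other starts). With the loader peaks of JK05, 4 of 2069 were (0.193%, against 0.762%). In JK05 361 SMC-3 peaks were called, and 1 of 98 bound starts, that of vig-1, was of a called gene. This share was 1.02%, against 0.683% of the other starts, and rests on 1 gene. With a window of 1000 bp the share called among starts bound by SMC-3 in CA1200 was 0.24%, against 0.81% of the other starts. These shares are descriptions with no test.

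In JK06, 0 of 18308 genes were called by the authors' DESeq2 test (73 with an unadjusted p under 0.05, against 1056 of 15316 in JK05). The standard error of the log2 fold change was larger in JK06 than in JK05 for swt-3 (0.48 against 0.27) and daf-7 (0.41 against 0.27). It was smaller for F30A10.11 (0.52 against 1.52), which had no read in JK05. The counts of called genes were thus not obtained at equal precision, and 0 called does not show that no gene changed in JK06. The JK05 and JK06 comparisons share the CA1200 libraries, so likeness between them is not read as a result. For the 34 genes called higher in JK05, the median log2 fold change was 0.21 in JK06 and 1.83 in JK05 in the authors' deposited tables, and 18 of the 34 lay within 0.5 of 0 in JK06. For the 71 called lower it was −0.37 in JK06 and −1.72 in JK05, and 39 lay within 0.5 of 0 in JK06. On the scale of the JK06 table, swt-3 had 185 and 260 normalized counts in JK06, against 202 and 190 in CA1200. The counts of daf-7 were 1748 and 1441 in JK06, against 1750 and 1968 in CA1200. The counts of lbp-1 were 1067 and 875 in JK06, against 2338 and 2791 in CA1200. The JK06 values of swt-3 overlapped CA1200, and those of lbp-1 lay below it.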

How the data were processed

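Per the labels' protocols, poly(A) RNA of whole larvae was sequenced in 2 libraries per strain, and the series' design text calls the replicates biological without saying whether the cultures were separate. The authors used DESeq2 1.30.0 for the comparisons, per the submitters' processing notes and the file headers. Those notes also name Cufflinks 2.2.1, HISAT2 2.2.1 and HTSeq 0.13.5, in no order. Genome build, annotation and strand setting are not given in the sources used here. Per the file headers, the authors deposited for each gene a mean normalized count (a signal, averaged over the libraries of a fit), the log2 fold change and its standard error, the Wald statistic (a score), and a p-value with its adjusted form. The deposited peak lists give each peak a score and a fold enrichment, a ratio over input, which were not used beyond the positions.

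Reads per library were recovered from the tables as the whole numbers which, divided by the size factors, give the 15-digit mean, with genes up to a mean of 20000 tried. Where several sets of numbers matched, they were screened against the deposited log2 fold change within 2e-05. A single match was kept under a wider limit, and below a mean of 50 with no such screen. The same CA1200 reads came from both tables in 17613 of 17613 genes. In 11236 genes with a mean of 50 or more, the refit log2 fold change differed from the deposited one by at most 4.59e-05. Totals cover the recovered genes only. The plan had foreseen a count test where counts are held, and since the table has no count column the authors' Wald test stayed the main result and limma-trend (limma 3.58.1, R 4.3.3) on log2(normalized count + 1) was added after seeing the data. The recovery and limma were tested on simulated data. Python 3.11.15 was used.

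Tested genes are those with an adjusted p, and called means under 0.05. Symbols came from RefSeq for 17777 genes. Families are symbol prefixes, and arms are the outer 2 of 3 equal parts of each chromosome. Named genes are, in each direction, the 12 with the largest Wald statistic, the 5 most abundant, the 3 longest and 3 shortest, called neighbours, called members of families or lists with at least 2 called, and the cohesin genes. The members and lists were chosen with earlier results of these data known. P-values cover the spread of these libraries only. Alternatives were other thresholds, filters, bins, arm limits, neighbour rules and windows.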

Additional observations from a re-analysis of the deposited data

How the results depend on the processing

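The count of 105 called genes moved with the threshold and the test. It was 60 at an adjusted p under 0.01 and 173 under 0.1. It was 1 with limma-trend on the recovered reads, and 0 to 5537 with limma-trend leaving out 1 library at a time. The pairs of called genes numbered 11 among next neighbours and 18 with starts within 10 kb, of which 16 changed in the same direction. Families with at least 2 called genes numbered 6, and 13 at an adjusted p under 0.1. The median log2 fold change of the shortest genes was −0.13 with 10 bins and −0.11 with 5 bins. The other 18 values recomputed, for a Benjamini-Hochberg adjustment over every gene, filters at a mean count of 10, a fold limit, other bins, narrower arms and a 1000 bp window, lay within 1.5 times the reported count or within counting or replicate error. Among them, counts of called genes were 93 to 127. The share called at starts bound by SMC-3 was 0.0775% within 500 bp (2 of 2582) and 0.24% within 1000 bp (8 of 3337). That rise is beyond 1.5 times and rests on few genes. The median of the highest level bin was −0.10 with 10 bins and −0.06 with 5. The causes were not tested. No paired analysis was possible because the recovered libraries carry no replicate number. The shallower CA1200 library, at 7136867 reads, limits genes of low count, and 3 of its reads equal 5.35 normalized counts.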

Other observations

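Some large differences between the strain means were not called, and in several of them 1 CA1200 library stood alone. Among uncalled genes whose mean normalized count was 100 or more, the largest log2 fold change in size in the authors' deposited table was that of acdh-1, a short-chain acyl-CoA dehydrogenase gene, at −5.02 ± 2.07. It had 103 and 64.9 normalized counts in JK05, against 60.8 and 5396 in CA1200. The inducible heat shock gene hsp-70 had 286 and 273 in JK05, against 317 and 2563 in CA1200. In both genes the shallower CA1200 library stood alone. The genes idpp-12 and idpc-4 and the gene pqn-71 had the opposite pattern, with the deeper CA1200 library alone. For idpp-12 the values were 14.2 and 35.1 in JK05, against 559 and 30.3 in CA1200. For pqn-71 they were 58.8 and 71.3 in JK05, against 483 and 49.9 in CA1200. These genes were chosen after their values were seen.

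Genes in which 1 library stood over 2-fold from each of the other 3 were mostly odd in CA1200. The shallower CA1200 library was alone and low in 374 genes and alone and high in 166, and the deeper CA1200 library was alone and high in 174 and low in 112. Of the genes in which both JK05 libraries lay on one side of CA1200 with means over 2-fold apart, 156 were higher and 192 lower in JK05, and 95 of these 348 were called.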
